A study of Arabidopsis thaliana with 3 samples.

Results

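The genes described are the 10 photoreceptors of Arabidopsis thaliana: the phytochromes PHYA (AT1G09570), PHYB (AT2G18790), PHYC (AT5G35840), PHYD (AT4G16250) and PHYE (AT4G18130), the cryptochromes CRY1 (AT4G08920) and CRY2 (AT1G04400), the phototropins PHOT1 (AT3G45780) and PHOT2 (AT5G58140), and UVR8 (AT5G63860). They were picked by gene identity, and every alternative splicing event deposited for them was used. Of the 10 genes, 9 were listed and PHYD was not. Together they held 93 of the 62909 events of the whole table, which covers 14496 genes. The RNA came from the pooled first true leaf of untreated Col-0 plants, the reference accession, grown at 20 °C, 70% humidity and a day of 16 h light and 8 h dark. The 3 libraries are replicates 1, 2 and 3 of 1 group, so no treatment is compared. Whether each pool was grown as its own planting is not stated, so tests over libraries measure the spread of these samples alone, and that spread may be technical.

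Plant photoreceptors convert light of different colours into signals for growth. Phytochromes bind a linear tetrapyrrole and switch between a red-absorbing and a far-red-absorbing state, with an N-terminal photosensory region and a C-terminal output region. Cryptochromes are flavoproteins that respond to blue light. Phototropins are blue-light-activated kinases with LOV domains that steer bending, chloroplast movement and stomatal opening. UVR8 is a propeller-shaped UV-B sensor that uses tryptophans in place of a bound pigment. In leaves these proteins set shade responses, flowering time and the position of chloroplasts, and the series title places the study on the divergence of splicing between duplicated genes, a history that phytochromes, cryptochromes and phototropins share.

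The level of an event is its alternative reads as a percentage of all reads of its junction in 1 library, and means are given ± SD over the 3 libraries (n = 3). A retained intron (class IR) counts reads for the unspliced form, and ALTA and ALTD are shifts of the acceptor (the 3′ end of the intron) and of the donor (the 5′ end). ALTP shifts both ends, and CRIN removes sequence from inside an exon, with a total taken over the whole gene. The 93 events were 60 retained introns, 12 ALTA, 12 ALTD, 5 ALTP and 4 CRIN, and no skipped exon was listed. No listed event has 0 alternative reads in any library, so an unlisted event cannot be told from one that failed this limit. At the 62 junctions of these genes the median depth was 1265, 1204.5 and 2039 reads in replicates 1, 2 and 3, against 181, 176 and 303 reads over all nuclear junctions. Deeper junctions can list lower levels. The leaf markers RBCS1A, RCA, CA1 and LHCB3 had median depths between 44857 and 682042 reads. AP3, PI (floral), PLT1, EXPA7 (root) and OLEO1 (seed) were not listed, which does not show that these genes were silent. Floral AG had 1 event at a junction with 18, 6 and 23 reads. No other annotated gene overlapped any of the 76 introns of the 10 genes.

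The sequences below are the coding intron that each listed phytochrome gene kept most often. They are from the RefSeq assembly TAIR10.1, 5′ to 3′ on the strand of the gene, whole or, for PHYB, to the stop codon. They are shown because this intron does not lie at the same position in all of these genes. PHYA intron 3 was kept at a lower level than the other introns shown. Capitals mark the 36 bases kept by the upstream acceptor in PHYC, the stop codon that ends the open reading frame in PHYB and PHYE, and the first and last 2 bases of the intron in PHYA.
PHYC intron 1 (chr5:14010066-14010202, + strand): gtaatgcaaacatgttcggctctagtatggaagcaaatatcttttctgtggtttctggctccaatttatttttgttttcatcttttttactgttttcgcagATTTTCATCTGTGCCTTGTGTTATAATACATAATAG
PHYB intron 3, start (chr2:8143520-8143649, + strand): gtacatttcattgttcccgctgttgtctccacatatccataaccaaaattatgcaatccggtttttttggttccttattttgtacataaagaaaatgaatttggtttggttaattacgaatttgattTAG
PHYE intron 2 (chr4:10042956-10043040, − strand): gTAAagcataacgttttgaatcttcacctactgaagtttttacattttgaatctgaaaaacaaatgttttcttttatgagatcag
PHYA intron 3 (chr1:3096073-3096142, − strand): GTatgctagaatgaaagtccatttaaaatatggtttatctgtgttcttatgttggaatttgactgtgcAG

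The 4 listed phytochrome genes did not all keep the same coding intron most often. Their coding introns lie at 3 matching positions of the aligned proteins, called positions 1, 2 and 3 here, of which PHYC lacks the last. PHYC peaked at position 1, PHYE and PHYA at position 2 and PHYB at position 3. In replicate 1 PHYA stood at 1.97% at position 2 and 1.86% at position 1, so its peak rests on replicates 2 and 3. These 3 positions are also those of PHYD, whose introns were not listed. PHYB and PHYD are 82.5% identical in protein sequence, so reads of near-identical stretches may be hard to assign between them.

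**Figure D1:**
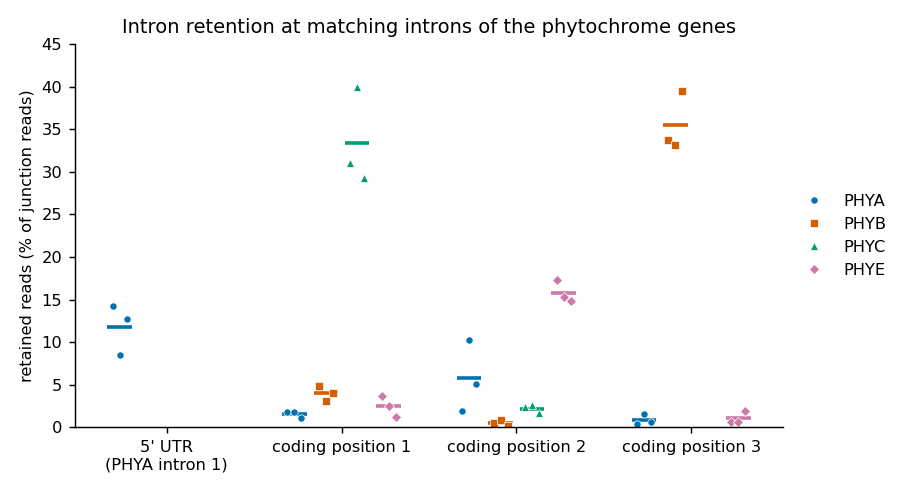
Retained reads in percent of junction reads (vertical axis) at the matching introns of PHYA, PHYB, PHYC and PHYE (horizontal axis), with 1 point per library and a line at the mean of the 3 libraries. The mean stands at 33.4% for PHYC at position 1, 15.8% for PHYE at position 2 and 35.5% for PHYB at position 3. The means of the other genes stay at 5.77% or below at these coding positions, though PHYA at position 2 reaches 10.3% in replicate 2.

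PHYB, the main phytochrome of light-grown plants, kept its last intron in many transcripts. Intron 3 (376 nt, chr2:8143520-8143895) was retained at 33.7%, 33.2% and 39.5% in replicates 1, 2 and 3, from 124, 84 and 224 retained reads. The 3 libraries lay close together (35.5% ± 3.51), and a difference beyond counting error was not detected (adjusted p = 0.325, chi-square test of equal levels, Benjamini-Hochberg adjusted over all events, as for every adjusted p between libraries here). Translation through the intron would add 43 residues after residue 1087 and end at the TAG shown above, giving 1130 residues in place of 1172. A RefSeq isoform ends at the same stop. The other PHYB introns were mostly spliced, with retention of 3.98% ± 0.910 at intron 1 and 0.526% ± 0.351 at intron 2.

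At PHYC intron 1, 3 forms were about equally common. PHYC, a phytochrome that acts together with PHYB, was spliced at an acceptor 36 nt upstream of the annotated one in 31.0%, 34.0% and 34.6% of junction reads (33.2% ± 1.96). The whole intron was retained in 31.0%, 39.9% and 29.3% (33.4% ± 5.71), from 57, 75 and 98 reads. The remaining reads, those of the annotated splice form, made up 38.0%, 26.1% and 36.1% (33.4% ± 6.43). No difference between libraries beyond counting error was detected in the shifted form (adjusted p = 0.861) or the retained form (adjusted p = 0.190, chi-square test). Both alternative forms hold an in-frame stop: the shifted form would encode 680 residues and the retained form 716, against 1111 for the annotated protein. The shifted acceptor is not annotated in RefSeq. Intron 2 of PHYC was retained at 2.21% ± 0.517.

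The acceptors at position 1 are printed because this is where PHYC uses a pair of competing sites. Capitals mark the first exon base.
PHYA intron 2 (chr1:3096959-3096974, − strand): tgcttatctatgcagG
PHYB intron 1 (chr2:8142316-8142331, + strand): catttggcaatgcagG
PHYC intron 1, annotated acceptor (chr5:14010188-14010203, + strand): tataatacataatagG
PHYD intron 1 (chr4:9197226-9197241, − strand): ttttcaattatgcagG
PHYE intron 1 (chr4:10043848-10043863, − strand): tgttgtgttgttcagG
Scored by a position weight matrix of 133345 annotated introns, the PHYC site ranked at percentile 26.4. The scores of the same acceptor in PHYA, PHYB, PHYD and PHYE ranked at percentiles 79.3, 42.6, 95.7 and 87.1. The acceptor of PHYC intron 2, retained at 2.21%, ranked lower, at percentile 11.6. No score is given for the upstream acceptor of PHYC intron 1. Such a rank describes the letters only and does not show how often a site is used.

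PHYE, which acts with PHYB in shade responses, kept intron 2 (85 nt) at 17.3%, 15.3% and 14.8% (15.8% ± 1.33), from 26, 23 and 40 reads. The in-frame TAA follows the first intron base, so the reading frame of the retained form would end after 934 residues, the last of them coded across the exon end, in place of 1112. Retention at the other PHYE introns was 2.50% ± 1.21 for intron 1 and 1.09% ± 0.753 for intron 3. No shifted site was listed for PHYE or PHYB.

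PHYA, the far-red sensor that is degraded in light, had its highest level outside the coding region. The 5′ UTR intron 1 (923 nt, chr1:3099224-3100146) was retained at 14.3%, 8.53% and 12.7% (11.8% ± 2.97, from 22, 18 and 31 reads), with no difference detected beyond counting error (adjusted p = 0.469, chi-square test). At the same intron, donors that lengthen the first exon by 210 nt and 724 nt held 2.36% ± 2.05 and 0.944% ± 0.870 of reads, from 1 to 7 reads per library, and both are annotated in RefSeq. Coding introns 2 and 4 stood at 1.57% ± 0.443 and 0.860% ± 0.610.

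Intron 3 of PHYA was the exception among phytochrome introns in that the libraries disagreed. It was retained at 1.97%, 10.3% and 5.06% (5.77% ± 4.2), from 7, 63 and 32 reads, and this differed beyond counting error (adjusted p = 2.63e-05, chi-square test). Replicate 2 carried the highest level, and without it the difference was lost (adjusted p = 0.143, chi-square test). The median PHYA junction held 286.5, 570 and 600 reads in replicates 1, 2 and 3, so PHYA was read more deeply in replicate 2 relative to the median nuclear junction given above, and the part of this in the result was not tested. In pooled leaves, fewer cells with a transcript and less of it per cell cannot be told apart. The intron is short, at 70 nt (length percentile 2.34 of annotated introns), holds no in-frame stop and shifts the frame, so the retained form would run on into the next exon and end after 994 residues in place of 1122.

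CRY1, the cryptochrome that restrains stem growth in blue light, also kept its last intron. Intron 3 (350 nt, chr4:5726552-5726901) was retained at 18.8%, 14.4% and 17.3% (16.9% ± 2.25), from 390, 321 and 587 reads. The libraries differed beyond counting error (adjusted p = 0.00706, chi-square test), with replicate 2 lowest, but not without replicate 1 (adjusted p = 0.0912) or replicate 2 (adjusted p = 0.460). The intron follows residue 680 of 681, so retention changes the end of the protein only: the open frame runs to the TAA shown here in capitals and would give 695 residues.
CRY1 intron 3, start (chr4:5726552-5726597, + strand): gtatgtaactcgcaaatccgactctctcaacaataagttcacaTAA
A donor 87 nt further downstream in this intron, which would code for the same 695 residues, held 0.269% ± 0.0801 of reads. Intron 1 of CRY1 was retained at 6.0%, 3.81% and 5.47% (5.09% ± 1.14, adjusted p = 0.112, chi-square test) and intron 2 at 0.231% ± 0.0940. A donor 5 nt upstream of the annotated one at intron 1 held 2.61%, 1.40% and 1.22% (1.74% ± 0.759, adjusted p = 0.0485, chi-square test). This call was lost without replicate 1 (adjusted p = 0.913, chi-square test), without replicate 3 (adjusted p = 0.160) and in the likelihood-ratio form of the test (adjusted p = 0.0655). The 3 CRIN events of CRY1 held 0.0488% ± 0.0324, 0.0351% ± 0.0161 and 0.00846% ± 0.00756 of gene-wide reads, and the first of them was called (adjusted p = 0.0287, chi-square test), though not without replicate 1 (adjusted p = 0.0972) or replicate 2 (adjusted p = 0.629).

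For CRY2, the cryptochrome that promotes flowering in long days, the form counted as alternative was the main one. In the transcript used for intron numbers (NM_179257.2), intron 1 lies in the 5′ UTR, and an acceptor 67 nt further downstream carried 89.7%, 96.3% and 94.4% of junction reads (93.4% ± 3.40). The remaining reads with neither this acceptor nor retention were 8.45%, 1.55% and 2.27%. The libraries differed beyond counting error (adjusted p = 0.00122, chi-square test), with replicate 1 lowest, but not without replicate 1 (adjusted p = 0.512, chi-square test). The site is annotated in RefSeq. Both acceptors are shown with the last 2 intron bases in capitals.
CRY2 intron 1, upstream acceptor (chr1:1188068-1188097, − strand): tctctctgttatgtttttttgtAGattatt
CRY2 intron 1, downstream acceptor (chr1:1188001-1188030, − strand): aatcattctctgttattgttatAGaactat
The introns of CRY2 were retained at levels far below that of the downstream acceptor. Intron 4 stood at 8.08%, 5.0% and 8.09% (7.06% ± 1.78, adjusted p = 0.0562, chi-square test). Intron 3 stood at 7.24%, 2.24% and 4.79% (4.76% ± 2.50, adjusted p = 9.42e-04, chi-square test), again lowest in replicate 2. This call was lost without replicate 1 (adjusted p = 0.0802, chi-square test) and without replicate 2 (adjusted p = 0.229). Introns 1 and 2 were retained at 2.46% ± 0.775 and 0.573% ± 0.346. The low level at intron 1 is a share that includes the reads of the downstream acceptor, and without those reads in the denominator the mean retention was 45.3%, on 8, 14 and 25 retained reads. At intron 3, an acceptor shift that removes 9 nt held 0.767% ± 0.240. The retained forms of introns 2, 3 and 4 would end after 119, 187 and 426 of 612 residues.

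**Figure D2:**
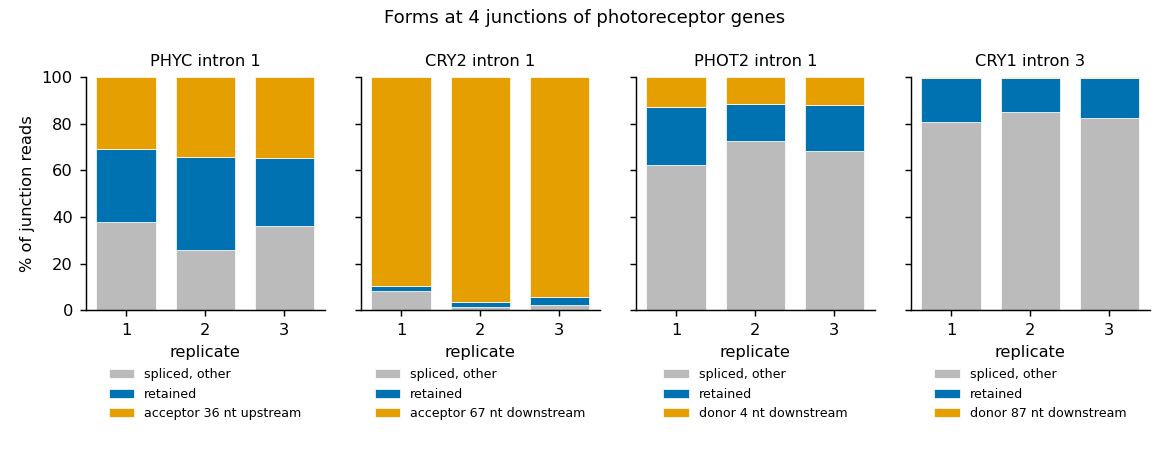
Share of junction reads in percent (vertical axis) by replicate (horizontal axis) at PHYC intron 1, CRY2 intron 1, PHOT2 intron 1 and CRY1 intron 3, stacked as the remaining spliced reads (grey), the retained intron (blue) and a shifted site (orange). PHYC divides about evenly over the 3 forms, the downstream acceptor of CRY2 takes 89.7% to 96.3%, the PHOT2 donor takes 11.4% to 13.0%, and the shifted donor of CRY1 (0.269%) is too small to see.

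The phototropins have many introns, 20 in PHOT1 and 22 in PHOT2, and most were spliced almost completely. PHOT1, the high-sensitivity sensor of phototropism, had 15 of its introns listed as retained and PHOT2, which also drives chloroplast avoidance in strong light, had 19. The median mean level was 0.482% in PHOT1 and 0.802% in PHOT2. Retention was not listed for PHOT1 introns 4, 7, 9, 11 and 17 and for PHOT2 introns 2, 12 and 13.

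PHOT1 intron 1 stood apart from all other introns of the gene. This 5′ UTR intron (1628 nt, chr3:16816916-16818543) was listed as retained in 240, 253 and 394 reads with no other read, a level of 100% in every library. A RefSeq isoform of PHOT1 starts inside this intron, and reads from such a start and reads of an unspliced intron cannot be told apart here. Over all nuclear genes, 1229 retained-intron events (2.85%) likewise had no other read in any library.

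In the rest of PHOT1, retention was highest at the last introns, which interrupt the kinase end of the gene. Intron 20 stood at 4.92%, 1.95% and 3.84% (3.57% ± 1.5, from 104, 46 and 146 reads, adjusted p = 1.87e-05, chi-square test). Intron 19 stood at 3.26%, 1.26% and 2.45% (2.32% ± 1.01, adjusted p = 0.00183, chi-square test) and intron 13 at 1.95%, 0.716% and 1.21% (1.29% ± 0.620, adjusted p = 0.00811). In these 3 introns replicate 1 was highest and replicate 2 lowest. Without replicate 2 the adjusted p was 0.254 for intron 20, 0.341 for intron 19 and 0.160 for intron 13 (chi-square test), and without replicate 1 the call at intron 13 was lost as well (adjusted p = 0.394). Introns 3, 16 and 18, with at least 10 reads in every library, were retained at 1.21%, 0.666% and 0.730%, at 0.775%, 0.725% and 1.36%, and at 0.862%, 0.495% and 0.865%. The other 8 listed introns held between 0.10% and 0.482%. The 7 shifted sites of PHOT1 reached 0.178% at most, from 1 to 9 reads per library.

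**Figure D3:**
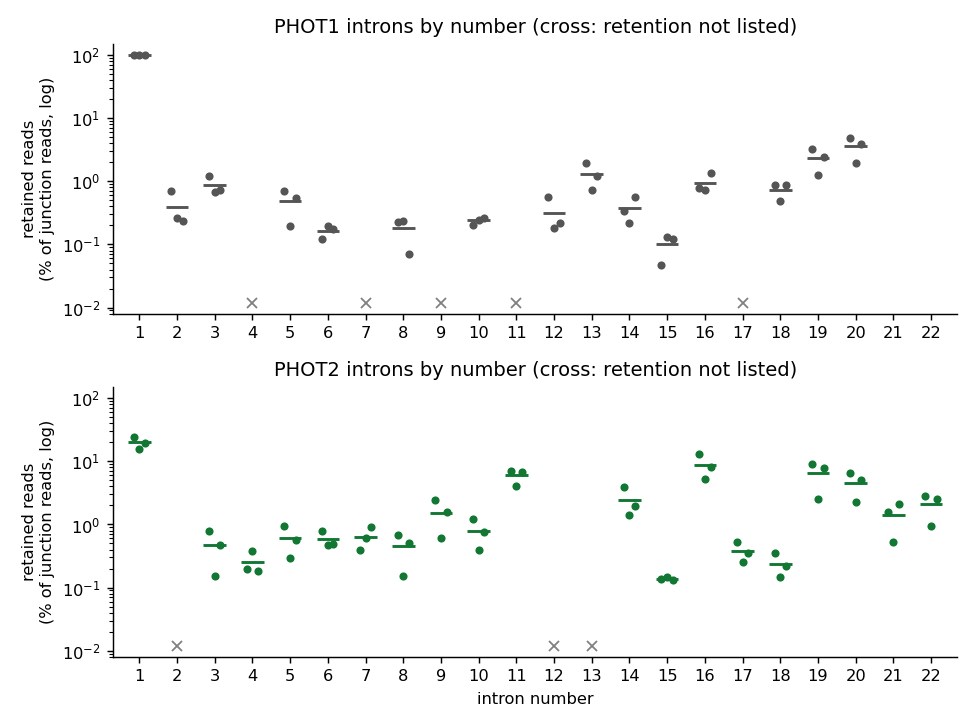
Retained reads in percent of junction reads on a log axis (vertical) for each intron of PHOT1 (upper panel) and PHOT2 (lower panel) by intron number (horizontal axis), with 1 point per library, a line at the mean and a cross where retention was not listed. PHOT1 intron 1 sits at 100%, PHOT2 intron 1 at 20.1%, and PHOT2 introns 11, 16, 19 and 20 stand between 4.59% and 8.87%.

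PHOT2 held the most events of the 10 genes, 35, of which 9 differed between libraries beyond counting error. Its 5′ UTR intron 1 (177 nt, chr5:23524546-23524722) was retained at 24.7%, 15.9% and 19.5% (20.1% ± 4.42), from 420, 250 and 545 reads, with a difference between libraries (adjusted p = 1.48e-07, chi-square test) that was lost without replicate 1 (adjusted p = 0.0791). A donor 4 nt downstream of the annotated one at the same intron, also annotated in RefSeq, held 13.0%, 11.4% and 12% (12.1% ± 0.813), with no difference detected between libraries (adjusted p = 0.639, chi-square test). The sequence shows in capitals the 4 bases between the donors, and the forms differ only in the 5′ UTR.
PHOT2 intron 1, donors (chr5:23524536-23524559, + strand): agctactctgGTTGgtatatatat

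Of the PHOT2 events within the coding region, the most frequent was an acceptor 10 nt upstream of the annotated end of intron 14. It held 11.3%, 8.60% and 11.1% of reads (10.3% ± 1.51), from 157, 105 and 234 reads, and no difference between libraries was detected (adjusted p = 0.190, chi-square test). The 10 added bases shift the frame, and the form would encode 669 residues in place of 915. The site is not annotated in RefSeq.
PHOT2 intron 14, last 30 bases with the added bases in capitals (chr5:23528217-23528246, + strand): ctttcgttgacaacatgcagCTTTATGCAG

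The 2 most retained coding introns of PHOT2, 16 and 19, lay towards the kinase end. Introns 15, 17 and 18 beside them stood at only 0.139%, 0.376% and 0.240%. Intron 16 (215 nt, chr5:23528511-23528725) was retained at 13.3%, 5.21% and 8.13% (8.87% ± 4.08, from 164, 54 and 141 reads, adjusted p = 5.36e-09, chi-square test). Intron 19 was retained at 9.18%, 2.51% and 7.75% (6.48% ± 3.51, from 114, 26 and 139 reads, adjusted p = 3.37e-08, chi-square test). For both, replicate 1 was highest and replicate 2 lowest. Intron 19 is shown whole because an in-frame TAG, in capitals, follows within its first bases, so the retained form would end after 774 residues.
PHOT2 intron 19 (chr5:23529219-23529316, + strand): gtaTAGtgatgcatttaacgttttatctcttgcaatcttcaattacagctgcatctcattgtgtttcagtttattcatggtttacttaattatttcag
The next levels were 7.06%, 4.12% and 6.77% at intron 11 (5.98% ± 1.62, adjusted p = 0.0494, chi-square test) and 6.50%, 2.24% and 5.04% at intron 20 (4.59% ± 2.17, adjusted p = 2.14e-04, chi-square test). Introns 14 and 22 stood at 3.97%, 1.39% and 1.94% (adjusted p = 6.15e-04, chi-square test) and at 2.86%, 0.953% and 2.51% (adjusted p = 0.0334). Introns 9 and 21 averaged 1.54% ± 0.910 (adjusted p = 0.0159, chi-square test) and 1.41% ± 0.801 (adjusted p = 0.00336). In all 8 of these coding introns replicate 2 was lowest. Without replicate 2 the calls were lost at introns 19, 20, 21, 22, 9 and 11, with adjusted p from 0.339 to 0.908 (chi-square test). Without replicate 1 the chi-square test lost those at introns 14 (adjusted p = 0.706), 9 (0.194), 16 (0.0848), 11 (0.0814) and 22 (0.0581), so introns 9, 11 and 22 depend on both libraries. The remaining 10 listed coding introns held 0.139% to 0.802%.

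Among the other shifted sites of PHOT2, a donor 5 nt upstream at intron 22 held 2.52%, 1.82% and 1.55% (1.96% ± 0.498). It begins with GC instead of GT, is annotated in RefSeq and would give 898 residues. An acceptor shift that removes 10 nt at intron 11 held 1.62%, 1.12% and 1.66%, one that adds 13 nt at intron 7 held 0.930%, 0.601% and 0.497%, and an ALTP event at intron 12 held 1.20%, 0.981% and 0.871%. The last has the ends GG-GT in place of usual splice-site letters. The rest were at 0.733% or below.

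UVR8, the UV-B sensor, had 7 of its 12 introns listed as retained and no shifted site. Intron 9 (133 nt, chr5:25555638-25555770) was highest, at 8.10%, 5.43% and 8.88% (7.47% ± 1.81, from 64, 49 and 120 reads, adjusted p = 0.0722, chi-square test). It was followed by intron 10 at 3.08%, 2.93% and 3.61% and intron 8 at 4.74%, 2.54% and 2.15%. These 3 introns are neighbours in the gene, and intron 9 stood above both in every library. Introns 6 and 12 stood at 1.39%, 1.78% and 2.06% and at 1.37%, 1.26% and 1.77%, and intron 7 averaged 0.602% ± 0.368. Intron 5 was called (adjusted p = 0.00148, chi-square test) on 9, 1 and 1 reads, so the call rests on replicate 1, without which the adjusted p was 0.948 (chi-square test). Without replicate 3 it was 0.0579. Introns 1, 2, 3, 4 and 11 were not listed.

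Over all 9 listed genes, most introns were kept rarely. The median over the 60 retained introns was 1.44%, against 4.19% over 43194 nuclear retained introns. Of the 60, 7 (11.7%) reached 10%: PHOT1 intron 1, PHYB intron 3, PHYC intron 1, PHOT2 intron 1, CRY1 intron 3, PHYE intron 2 and PHYA intron 1. Over all nuclear retained introns the share was 28.7%, and among those with at least 10 alternative reads in every library it was 54.4%, where the photoreceptor genes had 7 of 27 (25.9%). PHOT1 intron 1 alone exceeded 50%, a level reached by 7.1% of nuclear retained introns. Of the 29 shifted sites 4 (13.8%) reached 10%, against 25.5% of nuclear shifted sites, and 20 were below 1%.

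These shares move with depth, which is why the genes are also set beside introns of the same depth. At junctions of 100 to 200 reads per library, 2 photoreceptor introns had a median of 9.16%, against 4.99% for nuclear introns. At junctions of 200 to 500 reads per library, 10 photoreceptor introns had a median of 3.10%, against 3.07% for nuclear introns. At 500 to 1000 reads it was 2.46% against 1.74%, at 1000 to 2000 reads 1.74% against 1.21%, and at 2000 to 5000 reads 0.532% against 0.719%. Within these ranges the medians of the photoreceptor introns and of nuclear introns lay closer together than over all depths, except where only 2 introns entered. In these ranges, from low to high depth, 1 of 2, 4 of 10, 0 of 9, 0 of 19 and 2 of 20 photoreceptor introns reached 10%. The shares of nuclear introns were 27.8%, 19.4%, 12.2%, 9.26% and 4.76%. Shifted sites were not set beside sites of the same depth. The depth ranges were chosen after the values were seen.

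**Figure D4:**
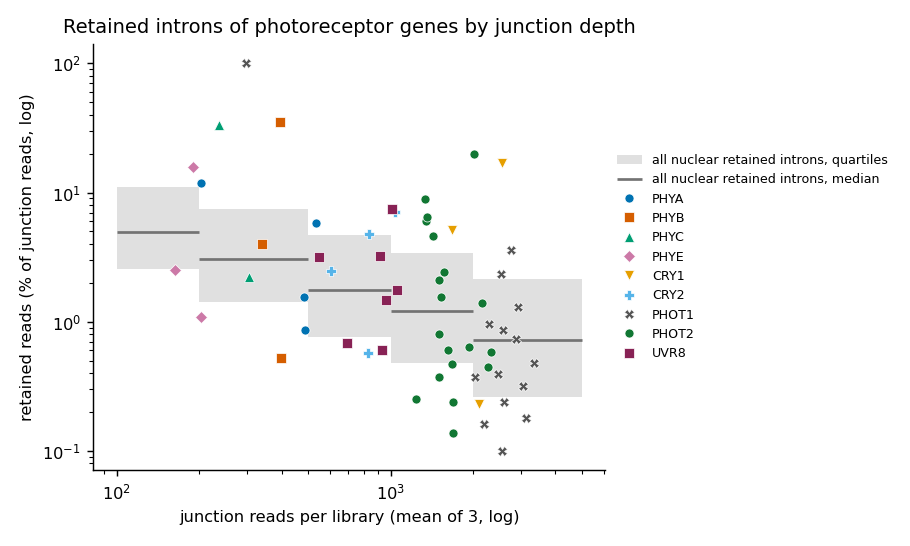
Mean retention in percent of junction reads (vertical, log axis) against mean junction reads per library (horizontal, log axis) for the 60 retained introns of the photoreceptor genes, by gene, with the median (line) and quartiles (grey box) of all nuclear retained introns in each depth range. Medians of nuclear introns go down with depth, to 0.719% at 2000 to 5000 reads, and PHOT2 intron 1 and CRY1 intron 3 stand far above the box at 2000 reads or more.

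Of the 60 introns with listed retention, 56 lie in coding sequence, and 48 of these hold an in-frame stop inside the intron. The other 8, among them PHYA intron 3 and CRY1 intron 2, shift the frame, and the reading frame then ends in a later exon. None of the 8 reached a mean retention of 10%, a level that only 4 of all 56 reached. Across the 56 introns the mean level had a Spearman correlation of -0.03 with the percentile of the donor score and of 0.25 with intron length. With the percentile of the acceptor score it was 7.52e-04. Within genes the correlation with the donor percentile was -0.40 over 18 introns of PHOT2, -0.13 over 14 of PHOT1 and -0.14 over 7 of UVR8. With the acceptor percentile it was 0.01, 0.44 and -0.25 in PHOT2, PHOT1 and UVR8. With intron length it was 0.10, 0.36 and -0.54, so the sign was not the same in all of these genes. These points share libraries and depth within a gene, and the values are given as a description only.

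Between libraries, 19 of 92 testable photoreceptor events differed beyond counting error, where 10.4% of all events did. Among the retained introns the count was 16 of 59, against 12.6% of all retained introns, and among shifted sites it was 2 of 29 against 5.21%. Among events with at least 10 alternative reads in every library 24.8% were called, and 16 of the 35 testable photoreceptor events of that kind. The called share of nuclear introns goes up with depth. At 100 to 200 reads 0 of 2 photoreceptor introns were called against 7.77% of nuclear introns, and at 200 to 500 reads 0 of 9 against 11.4%. At 500 to 1000 reads 3 of 9 photoreceptor introns were called against 17.6% of nuclear introns, at 1000 to 2000 reads 7 of 19 against 23.2%, and at 2000 to 5000 reads 6 of 20 against 27.0%. The test counts any ordinary difference between libraries, and 6 of the photoreceptor events were called without replicate 1, 6 without replicate 2 and 17 without replicate 3.

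The called introns mostly moved the same way. Of the 16 called retained introns, replicate 2 was lowest in 14 and replicate 1 highest in 14. PHYA intron 3 was an exception to both, UVR8 intron 5 to the first and PHOT2 intron 21 to the second. Over all called nuclear retained introns replicate 2 was lowest in 53.1% and replicate 1 highest in 58.7%. The median retention of the photoreceptor introns was 1.67%, 0.986% and 1.47% in replicates 1, 2 and 3, and that of all nuclear introns was 4.23%, 3.53% and 4.0%. The order of the libraries is thus the same in both, and the part of the library in each result was not tested.

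Pairs of related photoreceptors were compared within each library at introns that interrupt the same aligned codon in the same phase. The pairs were CRY1 with CRY2, PHOT1 with PHOT2, PHYB with PHYD, PHYA with PHYC and PHYB with PHYE, and the other pairs of phytochromes were not tested. There were 17 such introns with retention listed in both genes, and in 15 the sign was the same in all 3 libraries. With 3 libraries the exact two-sided sign-flip permutation test cannot go below p = 0.25, so none could pass, and the adjusted p was 0.283 for these 15 and 0.5 for the other two. In 10 of the 17, the ranges of the genes did not overlap. Among these, only PHOT1 intron 18 with PHOT2 intron 19 had at least 10 retained reads in every library in both genes. The others fell to between 1 and 6 retained reads in a library. Matching introns also differ in length, and the rule for counting reads inside introns is not known. The longer intron had the higher level in some pairs, such as PHYB intron 3 (376 nt) with PHYE intron 3 (106 nt). It had the lower level in others, such as PHYA intron 2 (198 nt) with PHYC intron 1 (137 nt). The part of length in these differences was not tested.

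In the phytochromes the differences were large. PHYB kept intron 3 at 35.5% ± 3.51 and PHYE the matching intron at 1.09% ± 0.753, a difference of 34.4 ± 2.76 percentage points. At position 2 the order was the other way, with 0.526% ± 0.351 in PHYB and 15.8% ± 1.33 in PHYE, a difference of -15.3 ± 1.29 points. At position 1, 3.98% ± 0.910 in PHYB and 2.50% ± 1.21 in PHYE overlapped. PHYA, at 1.57% ± 0.443 for intron 2, stood below PHYC intron 1 at 33.4% ± 5.71, a difference of -31.8 ± 5.47 points, and PHYA intron 3 and PHYC intron 2 differed in sign between libraries.

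CRY1 and CRY2 share 1 coding intron position, at which CRY1 intron 1 was retained at 5.09% ± 1.14 and CRY2 intron 2 at 0.573% ± 0.346, a difference of 4.52 ± 1.36 points with ranges apart. PHOT1 and PHOT2 are 60.9% identical and share 18 positions, 11 with retention listed in both. Of these 11, the ranges were apart at 6, with PHOT1 higher at 2 and PHOT2 higher at 4. The 2 with PHOT1 higher fell to 2 and 3 retained reads in a library, and the 4 with PHOT2 higher to between 1 and 13. The widest gap was PHOT1 intron 15, from 1, 3 and 4 reads, at 0.10% ± 0.0465 and PHOT2 intron 16 at 8.87% ± 4.08, a difference of -8.77 ± 4.12 points. PHOT1 intron 18 at 0.741% ± 0.213 and PHOT2 intron 19 at 6.48% ± 3.51 came next (difference -5.74 ± 3.30 points). At the last 2 shared introns PHOT1 had the higher mean, 2.32% ± 1.01 and 3.57% ± 1.5 against 1.41% ± 0.801 and 2.11% ± 1.02 in PHOT2, with overlapping ranges. PHOT1 intron 11 was not listed, while PHOT2 intron 11 stood at 5.98% ± 1.62.

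A list of 26 other genes covers proteins that make the phytochrome pigment, move phytochrome into the nucleus, or bind or act next to the photoreceptors, and the related flavoproteins CRY3, UVR3 and PHR1. Of the 26, 16 had events, 80 in all with a median retention of 5.94% over 47 retained introns, against 4.19% over all nuclear retained introns. In 8 of the genes, 15 of 79 testable events were called, where 10.4% of all events were. Neither this share nor the median was set beside events of the same depth. FHL, which carries PHYA into the nucleus, had intron 1 retained at 100%, 82.1% and 83.3% (88.5% ± 9.98) from only 17, 23 and 15 reads. FHY3 and FAR1, related transcription factors that switch on FHL, had alternatives at their first intron: a shifted acceptor at 75.2%, 62.5% and 59.3% in FHY3 (adjusted p = 0.0255, chi-square test), and retention at 40.6%, 46.3% and 45.4% in FAR1. The FHY3 call was lost without replicate 1 (adjusted p = 0.837, chi-square test) and without replicate 3 (0.0964). PAPP5, a phosphatase that acts on phytochromes, kept intron 6 at 73.1%, 40.9% and 66.7% (adjusted p = 0.0190, chi-square test), lowest in replicate 2, and the call was lost without replicate 1 (adjusted p = 0.0995) and without replicate 2 (0.686). TZP, a nuclear partner of phytochromes, used a shifted acceptor at 39.4%, 42.9% and 40.7%, and PLP, a PAS/LOV protein, one at 16.2%, 15.6% and 17.1%. AT5G67385, an NPH3-family protein, kept intron 1 at 23.2%, 27.0% and 23.3%, and AT2G16365, an F-box protein, kept intron 3 at 100% in all libraries. RPT2, also of the NPH3 family, kept intron 3 at 20.4%, 9.92% and 14.7% (adjusted p = 9.25e-29, chi-square test). This call was kept without replicate 1 (adjusted p = 1.09e-07, chi-square test), replicate 2 (2.05e-10) or replicate 3 (3.42e-28). The other 10 genes, among them RUP1 and RUP2, the repressors of UVR8, and the phytochrome kinase substrates PKS1, PKS2 and PKS4, had no listed event.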

How the data were processed

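Pooled first true leaves of Col-0 gave 3 TruSeq libraries, per the labels' protocols. The authors deposited raw read counts, not normalized: alternative and other reads per event and library. CASAVA 1.8.2, GSNAP and the build TAIR10 are named in the submitters' processing notes. The event classifier, the rule for counting reads inside introns and the strandedness are not stated in those sources. Event classes were therefore read from coordinates, and how high a retained intron stands depends on an unknown counting rule. All events of a junction share 1 total (9092 of 9092 junctions with several events).

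Nuclear junction reads were 34587113, 33141594 and 62624801 in replicates 1, 2 and 3. Member junctions held 136 to 2425, 117 to 3044 and 237 to 4562 reads. Wilson 95% intervals and the tests cover only the counting error of independent reads. Reads without molecular identifiers are not independent, so both can understate that error. A difference beyond counting error is meant in this sense throughout. For PHYB intron 3 the intervals ran from 29.1% to 38.7%, 27.7% to 39.2% and 35.6% to 43.6%.

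Introns were numbered on the RefSeq transcript (TAIR10.1, whose nuclear coordinates are those of TAIR10) whose introns abut the listed sites, which held for 34 of 34 sites of these genes. Homologous introns came from global alignment of translated proteins (biopython 1.88, gap opening 11, extension 1). Libraries were compared by chi-square tests with Benjamini-Hochberg adjustment over all events (threshold 0.05, scipy 1.17.1). This method was tested on simulated counts of independent reads, without spread between libraries except a planted change. That simulation cannot show how the test behaves on reads that are not independent. All photoreceptor events were accounted for, with values in every library for those of at least 10 alternative reads per library. Partner genes were named by their highest such event, for up to 8 genes, and RPT2 was added for its call. The members and gene lists were chosen with earlier results of these data known. Alternatives left out each library, pooled reads, changed the denominator, the test, the scale or the read minimum.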

Additional observations from a re-analysis of the deposited data

How the results depend on the processing

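Calls between libraries depended on which libraries were used. Photoreceptor events called numbered 19 in all and 6 to 17 when 1 replicate was left out (6 without replicate 1, 6 without replicate 2, 17 without replicate 3), 19 by the likelihood-ratio test and 16 with at least 10 alternative reads in every library. Of the 19, none was kept under all 5 of these alternatives. Leaving out replicate 1 or 2 kept 6 of them each, leaving out replicate 3 kept 17, the likelihood-ratio test kept 18 and the read minimum 14. Partner events called numbered 15 in all and 6 to 10 with 1 replicate left out (7 without replicate 3), and all events 6393 in all, 2054 to 3811 with 1 replicate left out, and 4375 with the read minimum, which tests fewer events. The likelihood-ratio test over all events, added after seeing the data, called 6498. The cause was not tested. The count of photoreceptor introns retained at 10% or more was 7 or 8 under every alternative run, the added intron being PHOT2 intron 16 without replicate 2 and CRY2 intron 1 where the denominator changed. The paralog differences kept their direction under the alternatives run, with 15 or 16 of 17 of the same sign in all libraries used. With the reads of other events of the junction left out of the denominator, the PHYC shifted acceptor stood at 50.2%, the PHYC retained intron at 50.04%, the PHOT2 donor at 15.2% and CRY2 intron 1 retention at 45.3%, against 2.46% as reported. Levels of skipped exons were not run, as none is listed. No pairing of samples between groups was possible because there is 1 group. The paralog differences are taken between genes within a library. Depth limits many of the levels: 57 of the 93 events had fewer than 10 alternative reads in a library.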
